A study of Homo sapiens with 4 samples.

Results

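To see how the genes that encode histones responded to VHL restoration, every row of the count table whose symbol starts with HIST1H, HIST2H, HIST3H, HIST4H, H1F, H2AF or H3F was taken. The rule found 30 of the 12912 genes. Of these, 20 are HIST genes, which are named after the histone clusters and are classed as replication-dependent, and 10 are histone variants. The HIST genes comprise 1 linker histone H1 gene, 3 H2A, 10 H2B, 2 H3 and 4 H4 genes, and the variants 2 H1, 5 H2A and 3 H3 genes. Symbols starting with HIST1, HIST2 and HIST4 made up 15, 4 and 1 of the HIST genes, the last of them, HIST4H4, on chromosome 12. The rule used symbols only and no measured value. None of the 30 rows is named as a pseudogene or an antisense transcript.

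RNA was sequenced from 786-O, a clear cell renal carcinoma line that lacks functional VHL. 786-O-Ctrl is the VHL-null line and 786-O-VHL is the same line in which a retroviral vector expresses HA-tagged VHL, the substrate receptor of a ubiquitin ligase. The titles of both bear the letters TR, the study's short form for a triple reporter of GFP, luciferase and thymidine kinase. There were 2 libraries per group. Each group is 1 subline, and nothing in the labels says that its libraries came from separate cultures, so the spread between replicates may be technical. The 786-O-Ctrl libraries, below also the VHL-null libraries, are titled as replicates 1 and 2, but both of their count columns are headed as replicate 1, so it is unknown which column belongs to which library. They are distinguished by depth, the deeper one always given ahead of the shallower. The 786-O-VHL libraries are also called VHL-restored and are given in the order of replicates 1 and 2.

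The libraries held between 2807779 and 22141263 counts, with 786-O-VHL replicate 1 the shallowest. Levels are in CPM, counts relative to the library total after TMM scaling. Where no read was counted, up to 3 remain possible, or 1.02 CPM in that library and between 0.142 and 0.199 CPM in the others, a limit that covers counting error only. VHL itself was at 43.4 ± 0.741 CPM in the VHL-null and at 171 ± 10.5 CPM in the VHL-restored libraries (SD, n = 2 each), and counts do not separate the vector from the endogenous gene.

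Histones wrap DNA into nucleosomes, each built from H2A, H2B, H3 and H4, while H1 binds the linker DNA between nucleosomes. Replication-dependent histone genes are transcribed mainly in S phase, when new DNA must be packaged, and their mRNAs end in a conserved stem-loop that SLBP binds, in place of a poly(A) tail. Variants are made through the cell cycle from single genes, mostly as polyadenylated mRNA, and replace the replication-dependent histones at particular sites. The TruSeq RNA kit named in the labels is known to select polyadenylated RNA. Counts on HIST genes therefore come from the part of their mRNA that this selection retains, and they do not measure all of it.

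The stem-loop was looked for as a run of 16 bases made of the arm GGNNNT, the loop NTTN and the arm ANNNCC, with all 6 stem bases paired and G-T pairs allowed, within 200 bases after the annotated stop codon in GRCh37. It was found for 18 of the 19 HIST genes in the annotation and for 1 of the 10 variants, H2AFX. HIST1H3E had no such match in this window, and HIST1H2BG was not found in the annotation. Some of the matches are printed here from the mRNA strand with 5 bases on each side, the coordinates covering those 16 bases and capitals marking the stem-loop. They belong to 5 of the HIST genes that rose, to HIST1H2BK, the most abundant HIST gene that did not pass the test, and to H2AFX, and are shown so that the match in the variant can be read beside those in cluster genes.
HIST1H1C, chr6:26055972-26055987, minus strand: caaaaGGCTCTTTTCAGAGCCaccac
HIST1H2AC, chr6:26124897-26124912, plus strand: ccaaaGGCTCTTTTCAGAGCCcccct
HIST1H2BD, chr6:26158815-26158830, plus strand: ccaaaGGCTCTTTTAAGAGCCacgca
HIST1H2BN, chr6:27806868-27806883, plus strand: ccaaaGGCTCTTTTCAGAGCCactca
HIST1H2BK, chr6:27114145-27114160, minus strand: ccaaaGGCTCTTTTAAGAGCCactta
HIST2H4A, chr1:149804596-149804611, plus strand: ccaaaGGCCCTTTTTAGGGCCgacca
H2AFX, chr11:118965608-118965623, minus strand: acaaaGGCCCTTTTAAGGGCCaccac

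Promoters, from 250 bases before to 50 after the transcription start, were read from RefSeq (GRCh38.p14) for 27 of the 30 genes and each matched once, without a mismatch, in GRCh37, whose coordinates are given. The sequences shown are those of a pair of variants that fell and a pair of HIST genes that rose, as described further on. Capitals mark the motifs searched: CCAAT or ATTGG (the CCAAT box on either strand), TATAAA on the gene's strand (TATA box), ATTTGCAT or ATGCAAAT (octamer), TTTGAA or TTCAAA (cell cycle homology region), and TTTGGCGC, GCGCCAAA, TTTCCCGC or GCGGGAAA (E2F site).
H2AFZ, chr4:100871383-100871682, minus strand: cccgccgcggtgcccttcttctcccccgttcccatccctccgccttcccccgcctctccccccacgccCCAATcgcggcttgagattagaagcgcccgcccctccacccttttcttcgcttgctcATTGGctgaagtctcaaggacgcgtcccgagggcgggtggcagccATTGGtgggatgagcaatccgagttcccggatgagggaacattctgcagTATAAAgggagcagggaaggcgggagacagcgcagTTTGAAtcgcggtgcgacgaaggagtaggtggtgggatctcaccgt
H2AFX, chr11:118966126-118966425, minus strand: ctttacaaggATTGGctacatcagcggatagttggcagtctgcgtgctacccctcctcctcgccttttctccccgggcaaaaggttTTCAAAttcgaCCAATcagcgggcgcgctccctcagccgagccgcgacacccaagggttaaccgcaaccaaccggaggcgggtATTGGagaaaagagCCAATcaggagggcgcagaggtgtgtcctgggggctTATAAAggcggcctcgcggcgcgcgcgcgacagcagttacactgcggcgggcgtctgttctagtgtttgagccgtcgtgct
HIST1H1C, chr6:26056649-26056948, minus strand: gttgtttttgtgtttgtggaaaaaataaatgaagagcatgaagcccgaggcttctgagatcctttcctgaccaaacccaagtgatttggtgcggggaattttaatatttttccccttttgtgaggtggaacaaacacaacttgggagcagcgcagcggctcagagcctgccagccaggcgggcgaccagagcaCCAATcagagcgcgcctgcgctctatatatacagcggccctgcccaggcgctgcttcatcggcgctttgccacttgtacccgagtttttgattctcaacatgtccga
HIST1H2AC, chr6:26124150-26124449, plus strand: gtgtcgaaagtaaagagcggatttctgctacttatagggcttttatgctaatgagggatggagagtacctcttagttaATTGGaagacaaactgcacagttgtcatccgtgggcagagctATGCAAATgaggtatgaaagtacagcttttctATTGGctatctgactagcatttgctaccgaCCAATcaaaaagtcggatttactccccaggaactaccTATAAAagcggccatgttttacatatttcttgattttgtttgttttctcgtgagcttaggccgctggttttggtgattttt

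The CCAAT box letters were in 19 of 22 HIST promoters (86.4%) and in 9 of 12 variant promoters, against 34.6% of the 35116 promoters in the table. TATAAA was in 11 of the 22 HIST promoters and 4 of the 12 variant promoters, against 7.33% of all. The octamer was in 11 HIST promoters and in 1 variant promoter, that of H3F3B, against 1.77% of all. Cell cycle homology letters were in 7 HIST and 2 variant promoters, the latter those of H2AFZ and H2AFX, against 15.2% of all. The E2F letters were in 0 promoters of either class and in 2.27% of all. Several genes have more than 1 promoter in the table, and promoters of divergent neighbors share bases.

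Differences were tested by the quasi-likelihood method of edgeR, with Benjamini-Hochberg adjustment (FDR) over 12335 genes. Each log2 fold change is that of VHL-restored over VHL-null cells, with its standard error (SE). Of all genes tested, 64.5% passed an FDR of 0.05, 32.6% higher and 31.9% lower in VHL-restored cells, so that a call by itself was the common case. With 2 libraries against 2, an exact permutation test cannot go below p = 0.333, and the FDR rests on the spread that edgeR shares between genes.

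The variants went both ways. H2AFZ, H2AFX, H2AFV and H2AFY fell in VHL-restored cells, H1F0, H2AFJ, H3F3B and H1FX rose, and H3F3A and H3F3C did not pass the test. Thus 8 of the 10 variants were called, against 64.5% of all genes. Of the 10, 4 (2 in each direction) were called and differed by more than 2-fold, against 17.5% of all genes (10.0% higher and 7.52% lower). Groups did not overlap for 9 of the 10 variants and for 8 of the 15 HIST genes tested, against 80.0% of all genes. Of the 15 HIST genes, 6 rose, each by more than 2-fold, and 0 fell by edgeR, DESeq2 or limma-voom, nor did any fall at an unadjusted edgeR p under 0.05. The share of HIST genes called, 40%, was under the 64.5% of all genes called in either direction. All of these HIST calls were rises, and of all genes 32.6% were higher, 10.0% by more than 2-fold. The 6 include HIST2H4A, which passed the filter on low counts only through the group where it is high, so that their number and the median over the 15 are given as a description only. In bulk RNA, fewer cells in S phase and less mRNA per cell cannot be told apart. The median log2 fold change was 0.42 over the 15 tested HIST genes and 0.01 over the 10 variants, beside 0.02 over all genes tested. The HIST median depended on the genes and libraries kept: it was 2.06 with at least 10 counts in every library, 1.65 after thinning to the shallowest library, and 0.79, 0.85 and 0.73 without the shallower VHL-null library, 786-O-VHL replicate 1 and 786-O-VHL replicate 2. The median size of the log2 fold change, regardless of sign, was 0.96 for the variants, 0.55 for the HIST genes and 0.43 for all genes.

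**Figure D1:**
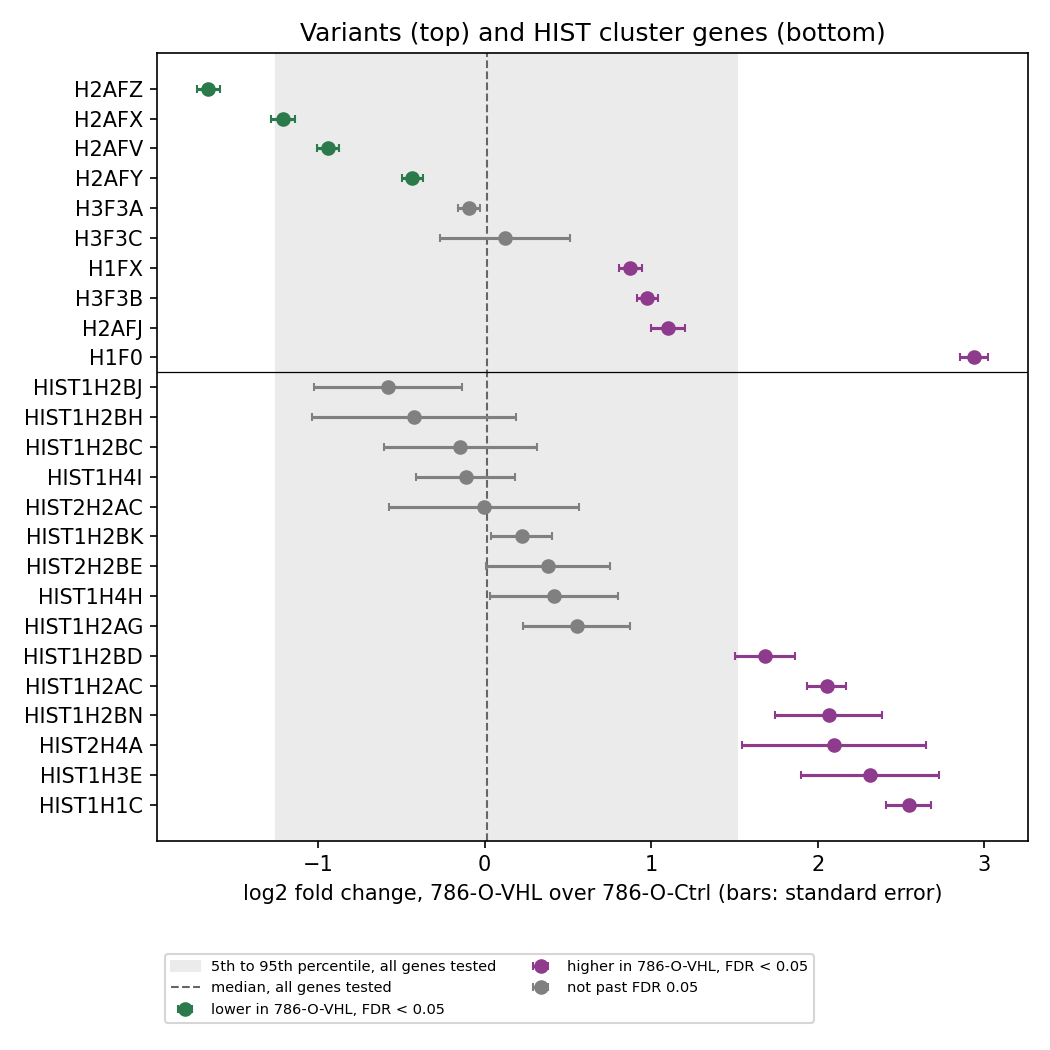
Log2 fold change of each tested member (x axis, 786-O-VHL over 786-O-Ctrl, bars are standard errors), variants above the line and HIST genes below it. The gray band runs from the 5th to the 95th percentile of all genes tested, -1.26 to 1.52, and all 6 HIST genes that rose, H1F0 and H2AFZ have values outside it.

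The H2A variants that fell are all core nucleosome proteins. H2A.Z, which marks promoters and other regulatory DNA, is encoded by H2AFZ and H2AFV. H2AFZ (ENSG00000164032.12, chromosome 4 of GRCh37, 100869243 to 100871512, minus strand) was at 350.3 and 353 CPM in the VHL-null and at 117 and 108 CPM in the VHL-restored libraries. Both VHL-restored libraries were thus far below both VHL-null libraries, a log2 fold change of -1.66 (SE 0.0679, edgeR FDR = 4.68e-18), or 3.16-fold lower. H2AFV (ENSG00000105968.18, chromosome 7, 44866390 to 44887686, minus strand) was at 244 and 243 CPM in VHL-null cells and at 125 and 128 CPM in VHL-restored cells. Its groups were also apart, with a log2 fold change of -0.94 (SE 0.0652, edgeR FDR = 5.05e-13). Together the H2A.Z genes summed to 595 ± 0.929 and 239 ± 3.52 CPM (SD, n = 2 each), 2.49-fold lower after restoration. The ratio of H2AFZ to H2AFV counts, not corrected for length, was 1.43 and 1.45 in VHL-null cells and 0.938 and 0.845 in VHL-restored cells. Per kilobase of merged annotated exons (RPKM), H2AFZ stayed above H2AFV, at 155 against 34.8 in VHL-null cells and 49.7 against 18.1 in VHL-restored cells. The merged length, 2270 bases for H2AFZ and 7003 for H2AFV, includes rarely used exons, and the order in VHL-restored cells depends on it.

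H2AFX encodes H2A.X, which is phosphorylated around DNA breaks. The gene (ENSG00000188486.3, chromosome 11, 118964584 to 118966175, minus strand) was at 239.7 and 223 CPM in VHL-null cells and at 90.2 and 104 CPM in VHL-restored cells. No value of one group reached the other, and the log2 fold change was -1.21 (SE 0.0718, edgeR FDR = 1.61e-14). H2AFX, the only variant with a stem-loop match, thus passed the test as lower, while 0 of the tested HIST genes did. H2AFY encodes macroH2A1, an H2A with a large additional domain that is found on silenced chromatin. The gene (ENSG00000113648.16, chromosome 5, 134670071 to 134735604, minus strand) was at 213 CPM in both VHL-null libraries and at 156 and 158 CPM in VHL-restored cells, the smallest of the 4 falls with a log2 fold change of -0.44 (SE 0.0638, edgeR FDR = 9.75e-07).

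H2AFJ was the H2A variant that rose. It encodes H2A.J, which is known to accumulate in senescent cells. The gene (ENSG00000246705.4, chromosome 12, 14927339 to 14930936, plus strand) was at 28.3 and 28.4 CPM in VHL-null cells and 47.1 and 65.8 CPM in VHL-restored cells. The VHL-restored libraries differed from each other by more than the VHL-null libraries did, and both lay above them, with a log2 fold change of 1.10 (SE 0.102, edgeR FDR = 2.22e-10). When replicate 2 of 786-O-VHL was left out, H2AFJ had a log2 fold change of 0.73, with 1 library left in that group.

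**Figure D2:**
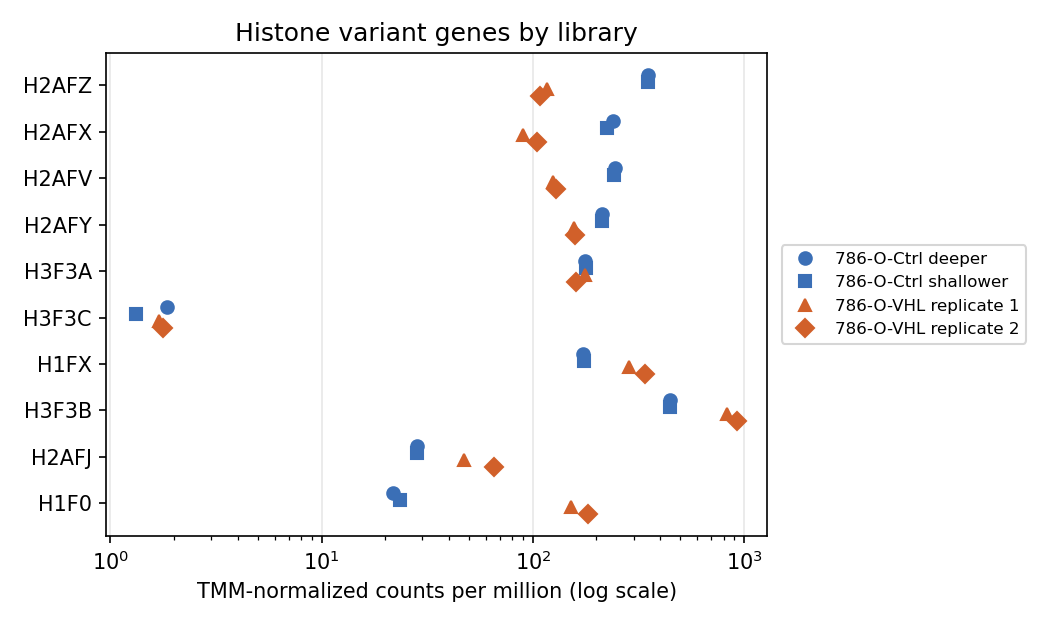
CPM of the 10 variant genes (x axis, log scale) in each library, blue for 786-O-Ctrl and orange for 786-O-VHL, ordered by log2 fold change. Groups are apart for all genes but H3F3C, with the widest gap for H1F0, from 21.7 and 23.5 CPM to 151 and 183 CPM.

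Among the H3 variants, the pair of genes that encode the same protein, H3.3, behaved differently. H3.3 is deposited outside replication, at active genes and at telomeres. H3F3B (ENSG00000132475.10, chromosome 17, 73772515 to 73781974, minus strand) was at 448 and 445 CPM in VHL-null cells and at 827 and 923 CPM in VHL-restored cells. It rose with a log2 fold change of 0.98 (SE 0.0630, edgeR FDR = 1.00e-13). H3F3A (ENSG00000163041.11, chromosome 1, 226249552 to 226259720, plus strand) was at 178 CPM in both VHL-null libraries and at 176 and 161 CPM in VHL-restored cells, a log2 fold change of -0.10 (SE 0.0656, edgeR FDR = 0.207). The small difference in H3F3A had an edgeR FDR of 0.018 without 786-O-VHL replicate 1 (log2 fold change -0.14), a fit in which the spread comes from the VHL-null libraries and the lone VHL-restored library is assumed to vary like them. It changed sign when library totals alone were used for scaling. The ratio of H3F3B to H3F3A counts was 2.52 and 2.50 in VHL-null cells and 4.69 and 5.74 in VHL-restored cells. Summed over both genes, H3.3 mRNA was at 624 ± 2.34 and 1044 ± 57.0 CPM (SD, n = 2 each), 1.67-fold higher after restoration. H3F3C, a copy of the H3.3 gene that lacks introns, had 20 to 39 counts in VHL-null cells and 5 and 30 in VHL-restored cells, with overlapping groups and an edgeR FDR of 0.799. Its sequence is close to that of H3F3B, and how the counting divided reads between such copies is not given, so its level is uncertain.

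The linker histones rose together. H1F0 encodes H1.0, a linker histone known to be enriched in cells that have left the cell cycle. H1F0 (ENSG00000189060.5, chromosome 22, 38201236 to 38203439, plus strand) was at 21.7 and 23.5 CPM in VHL-null cells and at 151 and 183 CPM in VHL-restored cells. This was the largest change of all tested members, with a log2 fold change of 2.94 (SE 0.0846, edgeR FDR = 2.80e-21), or 7.67-fold. H1FX, which encodes H1.10 (ENSG00000184897.6, chromosome 3, 129033614 to 129035129, minus strand), was at 173 and 174 CPM in VHL-null cells and at 286 and 339.9 CPM in VHL-restored cells. Its groups were apart, with a log2 fold change of 0.87 (SE 0.0694, edgeR FDR = 8.55e-12). An annotated antisense gene overlaps H1FX, and reads of both cannot be told apart without strand. HIST1H1C, the only HIST member of this family, encodes H1.2 and is at chromosome 6, 26055968 to 26056698, on the minus strand. HIST1H1C (ENSG00000187837.3) was at 6.27 and 6.45 CPM in VHL-null cells and at 39.7 and 36.2 CPM in VHL-restored cells, a log2 fold change of 2.55 (SE 0.134, edgeR FDR = 1.24e-15). Over the 3 linker genes the sum was 203 ± 2.07 and 518 ± 58.5 CPM (SD, n = 2 each), 2.56-fold higher. The ratio of H1FX to H1F0 counts was 7.98 and 7.42 in VHL-null cells and 1.90 and 1.85 in VHL-restored cells.

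Summed over all 10 variants, the level was 1890.2 ± 11.6 CPM in VHL-null cells and 2076 ± 139 CPM in VHL-restored cells (SD, n = 2 each), a ratio of 1.10. The make-up of that sum differed more than its size. H2AFZ, H2AFX, H2AFV and H2AFY made up 18.6%, 12.2%, 12.9% and 11.3% of the variant counts in VHL-null cells and 5.45%, 4.68%, 6.11% and 7.59% in VHL-restored cells, as means of 2 libraries. H3F3B went from 23.6% to 42.1%, H1FX from 9.18% to 15.1% and H1F0 from 1.19% to 8.03%. Because these are shares of 1 total, a rise in one gene lowers the share of the others. The log2 ratio of the summed variants, 0.14, was -0.27 without H3F3B and 0.060 without 786-O-VHL replicate 2.

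**Figure D3:**
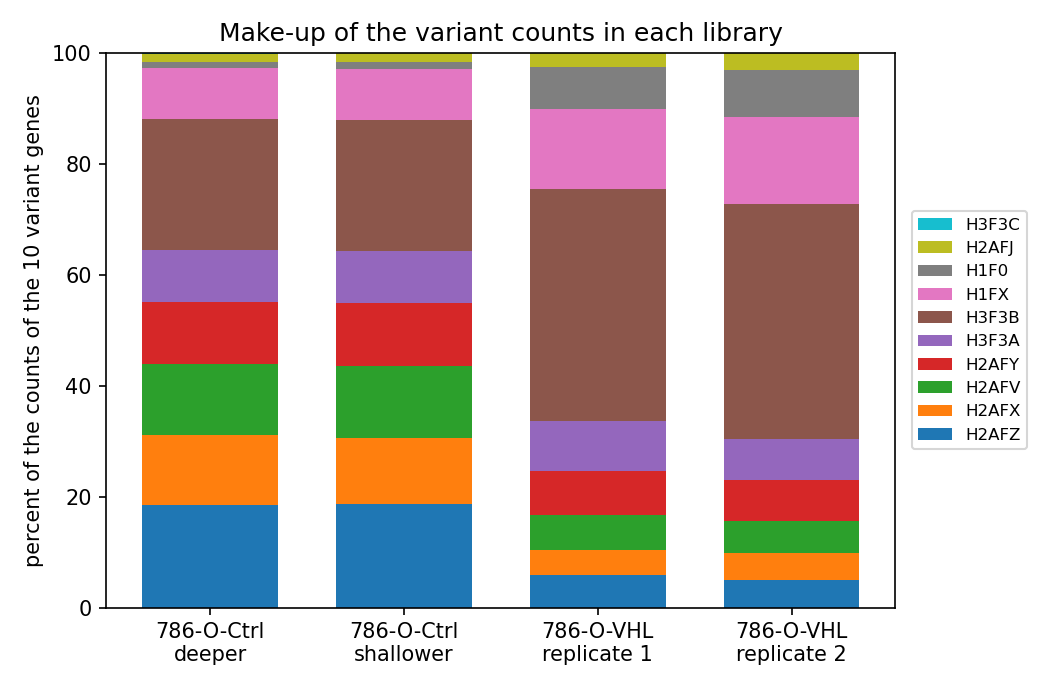
Percent of the counts of the 10 variant genes (y axis) that each gene took in each library (bars). H2AFZ at the foot of the bars takes 18.5% and 18.7% for 786-O-Ctrl but 5.92% and 4.99% for 786-O-VHL, while H3F3B takes 23.6% in each 786-O-Ctrl bar and 41.8% and 42.5% in the 786-O-VHL bars.

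The ratios and shares of counts above are not corrected for gene length. To order the levels of different genes, CPM was divided by the kilobases of merged annotated exons (RPKM from the group mean CPM), a length that includes rarely used exons. On that scale H2AFZ, H2AFX and H1FX were the most abundant members in VHL-null cells, at 155, 145 and 115. After restoration the order was led by H1FX, H3F3B and H1F0, at 207, 143 and 75.9. The highest HIST gene per kilobase was HIST1H2BK in VHL-null cells, at 18.7, and HIST1H1C in VHL-restored cells, at 51.9.

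The 6 HIST genes that rose belong to the H1, H2A, H2B and H3 families, apart from HIST2H4A, an H4 gene. HIST2H4A passed the filter on low counts only through the group where it is high, so no rise of the H4 family is read from it. HIST1H1C is described with the linker histones. HIST1H2AC (ENSG00000180573.9, chromosome 6, 26124373 to 26139344, plus strand), an H2A gene, was at 10.2 and 10.6 CPM in VHL-null cells and at 41.4 and 43.8 CPM in VHL-restored cells. Its log2 fold change was 2.05 (SE 0.117, edgeR FDR = 7.08e-15), or 4.15-fold. HIST1H2BD (ENSG00000158373.8, chromosome 6, 26158350 to 26171577, plus strand), an H2B gene, was at 4.75 and 5.12 CPM in VHL-null cells and at 14.2 and 16.3 CPM in VHL-restored cells, with a log2 fold change of 1.68 (SE 0.178, edgeR FDR = 2.94e-09). For these genes the libraries of a group lay close together and the groups far apart.

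The other HIST genes that rose rest on fewer counts. HIST1H2BN (chromosome 6, 27806323 to 27823487, plus strand), also an H2B gene, had 22 counts in each VHL-null library and 14 and 89 in VHL-restored cells, which gave 1.04, 1.46, 4.75 and 5.28 CPM and a log2 fold change of 2.07 (SE 0.321, edgeR FDR = 2.49e-06). HIST1H3E (chromosome 6, 26224427 to 26227701, plus strand), an H3 gene, had 16, 10, 18 and 49 counts in the same order, or 0.76, 0.664, 6.10 and 2.91 CPM. The groups of HIST1H3E did not overlap, but the VHL-restored libraries differed more than 2-fold from each other, and the log2 fold change was 2.32 (SE 0.415, edgeR FDR = 1.96e-05), between 2.01 and 3.06 when single libraries were left out. HIST2H4A (chromosome 1, 149804221 to 149811339, plus strand), an H4 gene, had 5, 7, 4 and 25 counts, a log2 fold change of 2.10 (SE 0.553) and an edgeR FDR of 0.00159. Neither VHL-null library reached the filter's limit of 0.628 CPM, and both VHL-restored libraries did. The call of HIST2H4A was lost without the deeper VHL-null library (edgeR FDR = 0.071), without 786-O-VHL replicate 2 (edgeR FDR = 0.162) and with DESeq2 (FDR = 0.0656). HIST2H4A also has a near-identical copy in the HIST2 cluster, so reads could be split between both.

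**Figure D4:**
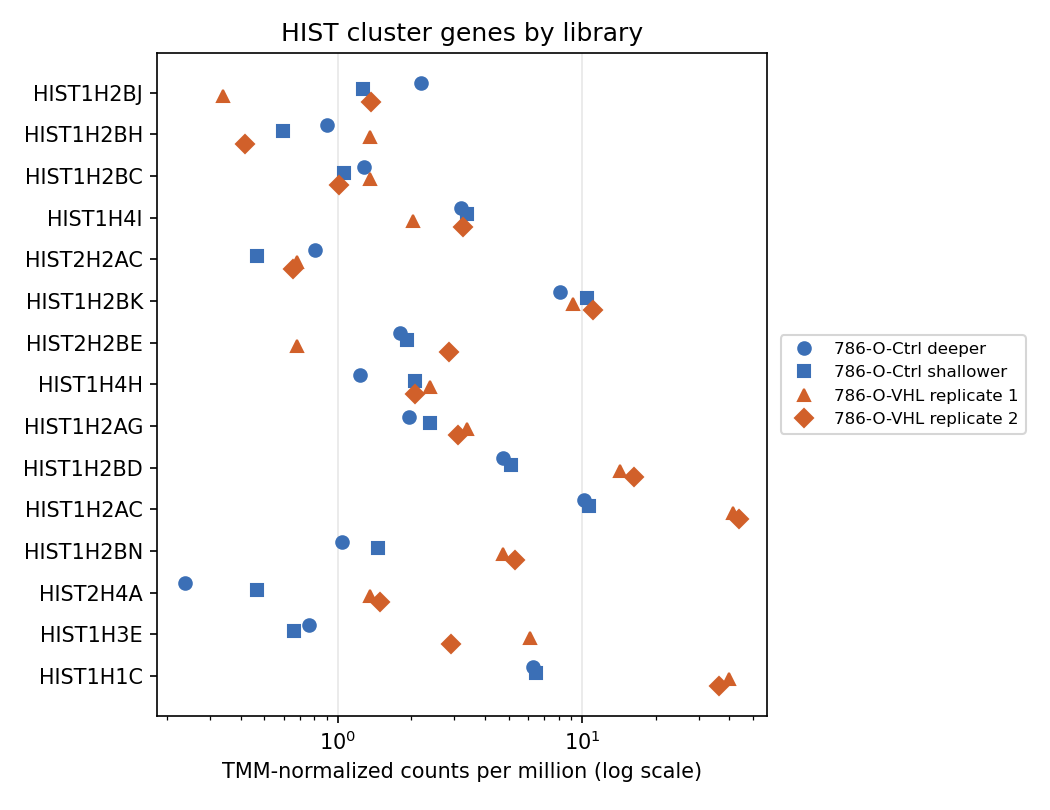
CPM of the 15 tested HIST genes (x axis, log scale) in each library, blue for 786-O-Ctrl and orange for 786-O-VHL, ordered by log2 fold change. The 6 genes at the foot of the plot, from HIST1H2BD to HIST1H1C, have both 786-O-VHL values above both 786-O-Ctrl values, and most of the others overlap.

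In sum the HIST genes were at 46.3 and 50.04 CPM in VHL-null cells and at 131 and 135 CPM in VHL-restored cells, 2.76-fold higher. The 6 genes that passed the test, which were split off by their values so that a difference between both parts was fixed by the choice, summed to 24.0 ± 1.11 CPM in VHL-null cells and 107 ± 1.13 CPM in VHL-restored cells, whereas the other 14 summed to 24.2 ± 1.505 and 26.1 ± 3.86 CPM (SD, n = 2 each). By family, the HIST sum was 3.52-fold higher for H2A, 1.68-fold for H2B and 1.15-fold for H4. Of the H2A sum, 13.2 and 46.5 CPM as group means, HIST1H2AC alone accounted for 10.4 and 42.6 CPM. The H3 sum was at 1.14 and 1.13 CPM against 7.12 and 3.44 CPM and rests on 24, 17, 21 and 58 counts, so no single fold is given for it. HIST1H2AC made up 21.6% of HIST counts in VHL-null cells and 32.0% in VHL-restored cells, HIST1H1C 13.2% and 28.6%, and HIST1H2BK 19.1% and 7.62%.

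For the 9 tested HIST genes that did not pass, the fitted log2 fold changes ranged from -0.58 for HIST1H2BJ to 0.55 for HIST1H2AG. For HIST2H2BE, HIST1H2BH, HIST1H2BC and HIST2H2AC the fitted sign was opposite to that of the difference in mean CPM, so no direction is read from them. The most abundant of them was HIST1H2BK, an H2B gene, at 8.07 and 10.4 CPM in VHL-null cells and 9.16 and 11.1 CPM in VHL-restored cells. Its groups overlapped, with a log2 fold change of 0.22 (SE 0.182, edgeR FDR = 0.291). HIST1H4I, an H4 gene, was at 3.18 and 3.39 CPM against 2.03 and 3.27 CPM, with a log2 fold change of -0.11 (edgeR FDR = 0.751). HIST1H4H, also an H4 gene, whose value is the median of the 15, had a log2 fold change of 0.42 (SE 0.384, edgeR FDR = 0.35). With single libraries left out, HIST1H4I ranged from -0.69 to -0.0038 and HIST1H4H from 0.055 to 0.79. HIST1H2AG, an H2A gene, was at 1.95 and 2.39 CPM against 3.39 and 3.09 CPM, and although its groups did not overlap the edgeR FDR was 0.134. The SE of these 9 genes ran from 0.182 to 0.613, against 0.0630 to 0.102 for the variants other than H3F3C, so that their fold changes were known less precisely at this depth. HIST2H2BE and HIST1H2BJ had only 2 and 1 counts in 786-O-VHL replicate 1, against 48 and 23 in replicate 2.

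The remaining 5 HIST genes had too few counts to be tested. In the order of libraries used throughout, HIST1H2BE had 4, 2, 0 and 11 counts and HIST1H2BG had 5, 8, 0 and 13. HIST1H3G had 8, 7, 3 and 9 counts. HIST2H2BF had 6, 1, 2 and 10 counts, and HIST4H4 had 13, 7, 1 and 8. No difference can be read from these values.

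H2A and H2B cluster genes often lie head to head and share the DNA between their starts. For 3 such pairs, picked by position, both genes were tested. HIST1H2AC and HIST1H2BC start 218 bases apart on chromosome 6, and the log2 fold change was 2.05 for HIST1H2AC and -0.15 (SE 0.461, edgeR FDR = 0.797) for HIST1H2BC. HIST1H2AG and HIST1H2BJ start 247 bases apart and had log2 fold changes of 0.55 (SE 0.321) and -0.58 (SE 0.445). HIST2H2AC and HIST2H2BE, 235 bases apart on chromosome 1, had -0.01 (SE 0.572) and 0.38 (SE 0.372), and neither gene of these latter pairs passed the test. HIST1H2BJ ranged from -2.36 without 786-O-VHL replicate 2 to -0.13 without the deeper VHL-null library. With single libraries left out, HIST2H2BE ranged from -1.45 to 0.61, HIST2H2AC from -0.30 to 0.49 and HIST1H2BC from -0.25 to 0.19. The difference within a pair was not tested. HIST1H2BC was low throughout, with 27, 16, 4 and 17 counts.

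The counts do not tell which annotated transcript of a gene was read, nor whether it ended at a stem-loop. Of the tested HIST genes, 8 have an annotated end over 1000 bases past the stop codon. Of these 8, 5 rose, HIST2H4A among them, and of the 7 with a shorter annotated end 1 rose, beside 32.6% of all genes. Whether the longer ends had a part in the rise was not tested. Exons of 10 members overlap another annotated gene, 2 of them (HIST1H2AC and H3F3B) on the same strand and 9 on the opposite strand. The latter include the variants H1FX, H2AFY, H2AFZ, H3F3A and H3F3B, so the limit given for H1FX holds for each of these.

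Genes that make, process and carry histones were taken from 5 hand-written lists, whose counts are to be read beside the 32.6% of all genes that were higher and the 31.9% that were lower. NPAT and CASP8AP2, which act at the histone locus body where cluster genes are transcribed, were both lower, with log2 fold changes of -0.48 (SE 0.132, edgeR FDR = 0.00234) and -0.56 (SE 0.122, edgeR FDR = 0.000247). HINFP, YY1 and POU2F1, the other listed factors, did not pass the test. In 3′ end processing of histone mRNA, 7 of 15 were lower and 3 were higher, around a median of -0.18 on the log2 scale, so that 10 of 15 were called beside 64.5% of all genes. The smallest p in that list were those of SRRT, SLBP and CSTF2. SLBP, the stem-loop binding protein, went from 127 ± 7.30 CPM to 70.8 ± 7.29 CPM (SD, n = 2 each) and had a log2 fold change of -0.90 (SE 0.0756, edgeR FDR = 2.77e-11). SRRT and CSTF2 had log2 fold changes of -2.12 and -1.37.

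The list of histone chaperones and replication-linked factors holds genes that act on new H3-H4, such as ASF1B and NASP, and also FACT subunits, SUPT6H and HAT1. Of its 15 genes 14 were tested, of which 13 were lower and 1, ASF1A, was higher, beside 31.9% and 32.6% of all genes, with a median log2 fold change of -1.19. MCM2, ASF1B, TONSL and NASP had the smallest p, with log2 fold changes of -2.22, -1.94, -1.75 and -1.43. ASF1A, the sister gene of ASF1B, went the other way with a log2 fold change of 0.81 (SE 0.105, edgeR FDR = 1.30e-07). In the list of chaperones and exchange factors of variants, which also holds the variant CENPA, 18 of 19 genes were tested, of which 7 were lower and 3 higher, with a median of -0.18, and the 10 called of 18 stand beside 64.5% of all genes. HJURP, the chaperone of centromeric H3, fell with a log2 fold change of -0.96, ANP32E, which removes H2A.Z, with -0.95, and MIS18A with -1.07, while ATRX, of the H3.3 chaperone complex with DAXX, rose with 0.51. CENPA, the centromeric H3 variant, whose symbol is outside the rule and which is 1 of these 18, was at 60.7 ± 0.203 and 62.7 ± 6.26 CPM (SD, n = 2 each), with a log2 fold change of -0.0032 (SE 0.0786, edgeR FDR = 0.974).

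S phase markers were lower throughout. All 15 listed genes passed the test, with a median log2 fold change of -2.04 beside 31.9% of all genes that were lower. RRM2, FEN1, MCM5 and MCM3 had the smallest p, with log2 fold changes of -2.64, -2.71, -2.17 and -2.22. Summed over the 15 genes, the level was 2333 and 2224 CPM in the VHL-null and 596 and 626 CPM in the VHL-restored libraries. These falls moved with the falls of H2AFZ, H2AFX and H2AFV and with the rise of 6 HIST genes. Their part in either was not tested.

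**Figure D5:**
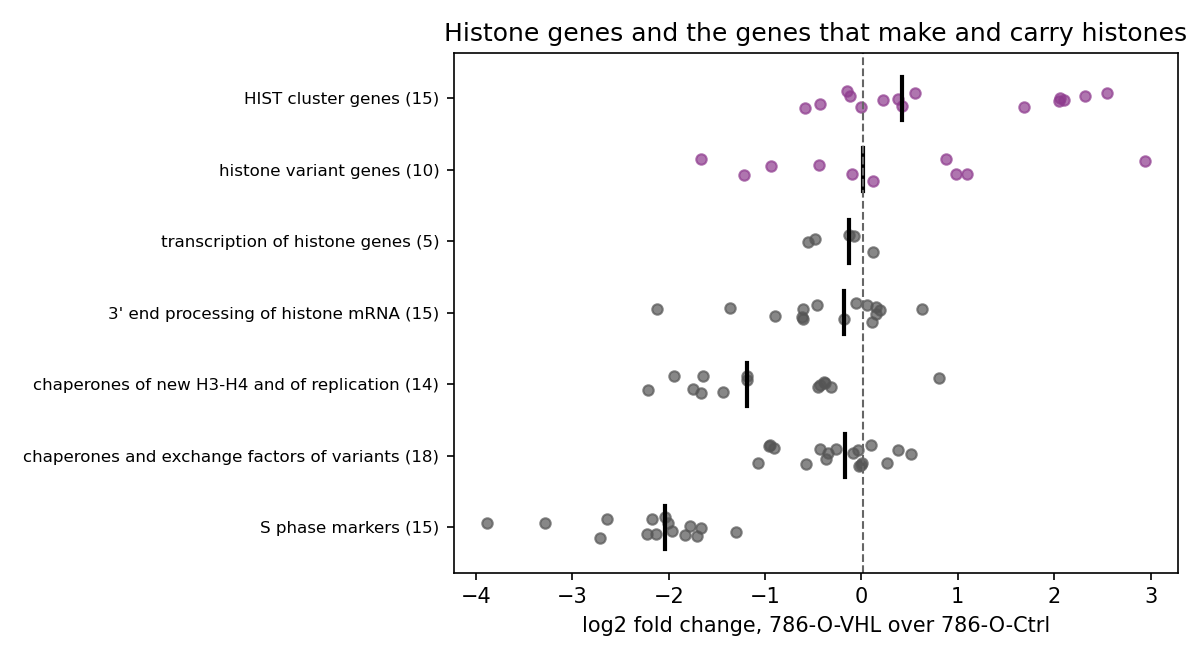
Log2 fold changes (x axis, 786-O-VHL over 786-O-Ctrl) of the tested genes of each list, 1 point per gene, with the number tested in brackets, the median as a black bar and the median of all genes as a dashed line. The S phase markers have a median of -2.04, the tested HIST genes one of 0.42 and the variants one of 0.01.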

How the data were processed

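RNA-seq of 4 libraries was analysed, 2 for 786-O-Ctrl cells and 2 for 786-O-VHL cells. The authors aligned reads to hg19 and deposited raw counts per gene, whole numbers for 12912 genes without normalization. STAR and CASAVA are named in the submitters' processing notes. Which counter and annotation were used, and whether counting was by strand, was not given in the sources used here. Both 786-O-Ctrl columns are headed with the same replicate number, although the labels number these libraries 1 and 2, and were used as replicates without a number. Coordinates, exons and stem-loops were taken from GRCh37 with GENCODE v44 lifted to it, in which 12749 identifiers and 29 of the 30 members were found by Ensembl identifier.

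edgeR 4.0.16, run in R 4.3.3, gave the tests. filterByExpr with a minimum count of 10 kept 12335 genes, 25 of them members, and TMM factors were applied. All 4 libraries shared 1 fit with a single term, the group. The common dispersion was 0.00186, a biological coefficient of variation of 4.31%. Standard errors are those implied by the F statistic. Replicates differed by more than sampling noise, with a chi-square per degree of freedom of 2.25 within 786-O-Ctrl and 2.76 within 786-O-VHL. DESeq2 1.42.0, limma-voom (limma 3.58.1), other scalings and filters, thinning to the shallowest library, an FDR of 0.01 and leaving out each library were the alternatives. The fits were tested on simulated counts.

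By rule, every member was accounted for. Values by library were due for tested variants, HIST genes past FDR 0.05 and the 3 most abundant that were not, and at most 4 genes per list were named by p. Outside this rule, the other HIST genes given values, and ASF1A, CENPA, POU2F1, YY1, HINFP, SUPT6H and HAT1, were named after their values were seen. The members and lists were chosen with earlier results of these data known.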

Additional observations from a re-analysis of the deposited data

How the results depend on the processing

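With 1 library left out its group has 1 library, which is assumed to vary like the other group. The calls of the 8 variants held under every alternative, as did those of HIST1H1C, HIST1H2AC, HIST1H2BD, HIST1H2BN and HIST1H3E wherever they could be tested, and 0 HIST genes were lower under any. Over all single members and alternatives, 239 of 256 values kept their direction and side of the threshold, 3 were no longer past it (all of HIST2H4A), 1 came past it (H3F3A) and 13 changed sign, none of them past the threshold. The number of HIST genes higher was between 4 and 6, and 5 to 6 with each library left out. Library totals alone moved the median of all genes from 0.02 to 0.15, with 5077 genes higher and 3097 lower in place of 4017 and 3939.

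The median log2 fold change of the tested HIST genes, 0.42, became 0.55 with library totals alone, 0.55 without a filter, 2.06 with at least 10 counts in every library and 1.65 after thinning, and ranged from 0.40 to 0.85 with each library left out. The filters keep different genes. For the variants, 0.01 became 0.15 with library totals alone, -0.091 with at least 10 counts in every library and -0.055 after thinning, and ranged from -0.084 to 0.15 with each library left out. The log2 ratio of the summed HIST genes, 1.46, became 1.60 with library totals alone, 1.61 after thinning and 1.26 without HIST1H2AC, and ranged from 1.40 to 1.51 with each library left out. That of the summed variants, 0.14, became 0.27 with library totals alone and -0.27 without H3F3B, and ranged from 0.060 (without 786-O-VHL replicate 2) to 0.20 with each library left out.

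The sign changes were all of small or poorly counted differences. With library totals alone HIST1H4I became 0.017, HIST2H2AC 0.13 and H3F3A 0.038. HIST2H2AC was also 0.025 with DESeq2 and 0.11 with limma-voom. With libraries left out in turn, HIST1H2BC ranged from -0.25 to 0.19, HIST1H2BH from -0.88 to 0.80, HIST1H2BK from -0.00055 to 0.38, HIST2H2AC from -0.30 to 0.49, HIST2H2BE from -1.45 to 0.61 and H3F3C from -0.077 to 0.40. The cause of these shifts was not tested. No paired analysis was possible because both 786-O-Ctrl columns are headed with the same replicate number. The 5 HIST genes without a test had 17 to 29 counts over all 4 libraries.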
